A study of Mus musculus with 221 samples.

Results

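Late hemogenic endothelium of the mouse yolk sac (YS) was compared between the large arteries and the capillary plexus in long-read data of single cells. Hemogenic endothelium (HE) is the endothelium that turns into blood cells, and the late HE cells are those that the clusters in the labels place further along this route. The arterial cells carry the label HE-YSA (late), cluster a2, and the plexus cells HE-YSP (late), cluster b3. Members were chosen by cluster label and by total count: 29 of 30 a2 cells and 24 of 27 b3 cells had at least 17595 estimated counts, together 53 of the 208 cells of the whole series that passed this limit and of 221 cells in all.

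All cells came from untreated embryos of Gfi1 GFP and Runx1b RFP reporter lines on the C57BL/6JOlaHsd strain, bred with wild-type CD-1 females. They were sorted as single endothelial cells that carry CD31 and KIT and lack CD41, CD45 and TER119. The gate set these surface proteins in both groups, while the RNA of their genes could still differ. The library names of all 29 a2 cells contain Gfi1, whereas 10 b3 cells are named for Gfi1 and 14 for Runx1. Embryonic day also differed: 1, 7 and 21 a2 cells were of E9.0, E9.5 and E10.5, against 6, 11 and 7 b3 cells. 1 a2 cell has AGM in its library name although it is labelled yolk sac. The labels tie no cell to an embryo or litter, and each group therefore counts as 1 sample. There is no replicate check, no test was run, and the 95% exact intervals given below cover counting error only.

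HE cells are flat vessel-wall cells that still hold endothelial junction proteins while they switch on blood transcription factors such as RUNX1 and GFI1. In the yolk sac, the plexus is the early capillary network, and its endothelium takes up material from its surroundings with scavenger receptors such as LYVE1. The arteries form as blood flow begins and are marked by gap junction proteins, ephrin B2 and Notch signalling. Blood cells of the yolk sac include erythro-myeloid progenitors (EMP), which give red cells, megakaryocytes and myeloid cells, and lympho-myeloid progenitors (LMP).

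Full-length cDNA of these cells, made by Smart-seq2, was sequenced on a nanopore instrument, in which 1 read can span a transcript. The clusters were drawn by the study from short reads of the same cDNA. The gene differences below therefore describe what separates the clusters and are not independent evidence for it. Levels are given as CPM, the summed estimated counts of a gene over the cells of a group per 1000000 of the group's summed counts. Totals per cell ran from 19105 to 65629 in a2 (median 34541) and from 18131 to 84052 in b3 (median 31776), with medians of 4053 and 3900.5 genes per cell. Ribosomal protein genes took 6.80% and 6.78% of counts, mitochondrial genes 2.50% and 2.63%, and processed pseudogenes 25.7% and 26.3%. The cells of a2 were spread as 10, 10 and 9 over 3 nanopore runs and those of b3 as 8, 8 and 8. 4 cDNA plates held cells of both groups, 1 plate held b3 cells only (10) and 1 held a2 cells only (2).

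A gene was called higher in a group when the log2 ratio of the CPM values, with 0.5 counts added to each sum, was at least 1.5, more than 50% of that group's cells had at least 1 count, and the direction was the same in each of the 3 runs. Of 7542 genes with at least 20 summed counts, 54 (0.716%) were higher in a2 and 38 (0.504%) were higher in b3. The median log2 ratio of all genes was -0.04. Just inside the limit were Wdr31 (1.53) and Adprs (-1.51), and just outside it Dmac2 (1.47) and Ube2e1 (-1.49). 49 of the 54 and 37 of the 38 were protein-coding. In 75 of the 92 called genes the median cell of the other group was at 0. Yet in 0 of the 92 were the cells of the groups apart, and for some of these genes cells of the higher group also lacked the gene. These counts were not made over all 7542 genes, so they do not set the called genes apart from the rest. A lower sum can come from fewer cells with the RNA or from less RNA per cell, and the share of cells with a count is given for several of the leading genes for this reason.

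**Figure D1:**
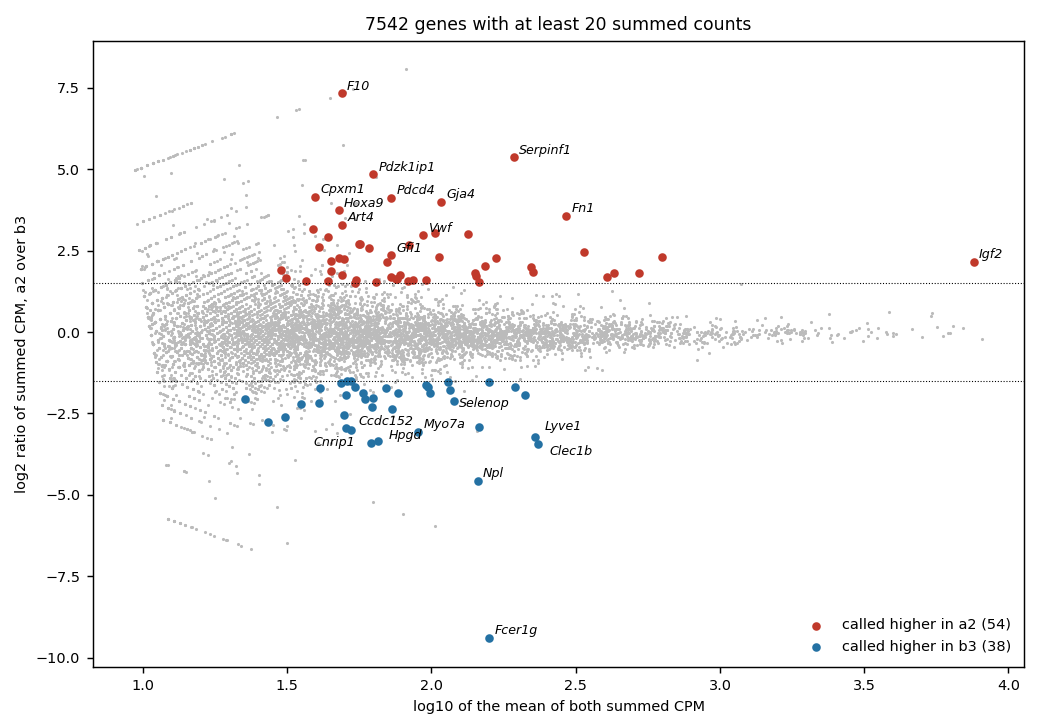
Each point is 1 of the 7542 genes, with log10 of the mean CPM of the groups on the horizontal axis and the log2 ratio of a2 over b3 on the vertical axis; dotted lines mark the limits of 1.5. Red points are the 54 genes called higher in a2 and blue points the 38 called higher in b3, and the farthest of them are Fcer1g at the bottom and F10 at the top.

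Genes of arterial and secreted endothelial products led the side of a2. Serpinf1, which encodes the secreted serpin PEDF, was at 377 CPM in a2 and 8.53 CPM in b3, a log2 ratio of 5.37 (95% interval 4.41 to 6.79). Its level per cell had a lowest value of 0, a median of 288 and a highest value of 1140 CPM in a2, against 0, 0 and 54.4 CPM in b3. 93.1% of a2 cells and 16.7% of b3 cells had a count. Most a2 cells were thus above the highest b3 cell, and the groups met only among cells with few or no counts.

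F10, coagulation factor X, had 104 summed counts in a2 and 0 in b3, at least 26.7-fold higher when 3 counts are taken as the limit over the group that had none. 55.2% of a2 cells had a count, with a lowest, median and highest cell at 0, 52.1 and 416 CPM. Fn1, the matrix protein fibronectin, was at 539 CPM in a2 and 45.1 CPM in b3 (log2 ratio 3.56, interval 3.10 to 4.10), with a median cell at 423 and 0 CPM. Vwf, von Willebrand factor of the vessel wall and of clotting, was at 166 and 20.7 CPM (log2 ratio 2.97, interval 2.29 to 3.82). Its counts were in 62.1% of a2 cells and 8.33% of b3 cells, and the highest cells were at 695 and 349 CPM. Serpinf1, F10, Fn1 and Vwf were each in more than 50% of a2 cells, as the calling rule asks, and F10 had no counts in b3. F10 and Vwf were at 0 in most a2 cells of E9.0 and E9.5, so their a2 levels rest largely on E10.5 cells. Serpinf1 and Fn1 had counts in all a2 cells of E9.0 and E9.5. Pdzk1ip1, a small membrane protein, was at 122 and 3.65 CPM, and Cpxm1, a secreted carboxypeptidase-like protein, was at 75.1 and 3.65 CPM.

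Gja4, the arterial gap junction protein connexin 37, was at 204 CPM in a2 and 12.2 CPM in b3 (log2 ratio 4.00, interval 3.16 to 5.15). The a2 cells ran from 0 to 1437 CPM with a median of 17.7, and 51.7% had a count. In b3 1 cell of 24 held all 10 counts. Levels of Gja4 were therefore uneven inside a2, with cells at 0 beside a cell at 1437 CPM. Most a2 cells of E9.0 and E9.5 were at 0.

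Of the 20 arterial genes that the study listed, 5 had enough counts to be compared, and all 5 were above 0 in log2 ratio, but Gja4 was the only one called. The median log2 ratio of the 5 was 5.28, or 4.00 with genes absent from b3 at their bound. The others were picked here after their values were seen. Mecom, a transcription factor of blood stem cells and arterial endothelium, had 95 counts in 48.3% of a2 cells and 0 in b3, at least 24.4-fold. Gja5, connexin 40, was at 70.4 and 1.22 CPM, and Efnb2, the ephrin B2 ligand, had 33 and 0 counts. Gja4, Mecom, Gja5 and Efnb2 reached 20 summed counts only through a2, so the list's median is partly set by this filter. The study scored these same clusters with this list, so its direction was known beforehand and is no independent evidence. The fifth, Pdlim1, an actin-linked adaptor, was in 69.0% of a2 cells but at 56.8 and 38.1 CPM (log2 ratio 0.56, interval -0.07 to 1.25). The remaining 15 genes, among them the Notch ligand Dll4 and the Notch targets Hey1 and Hey2, were under 20 summed counts, and 4 were at 0 in both groups. Within the wider Notch list 7 of 18 genes were compared, 0 were called and the median was 0.13. Mfng, a glycosyltransferase that modifies Notch receptors, was at 113 and 104 CPM.

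**Figure D2:**
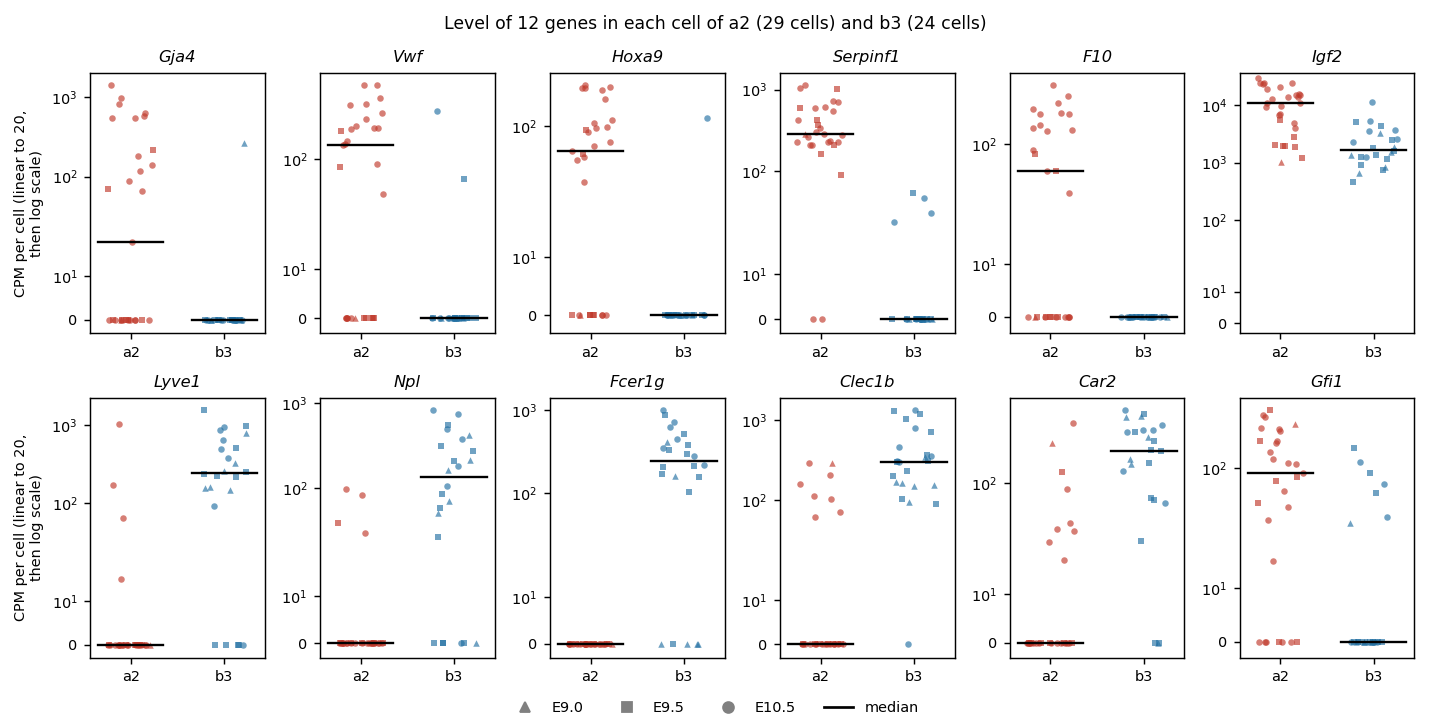
Level of 12 genes in each cell (CPM, on an axis that is linear near 0 and logarithmic above), with a2 cells and b3 cells side by side, the black line at the median, and triangles, squares and circles for E9.0, E9.5 and E10.5. Serpinf1, Gja4, Vwf, Hoxa9, F10 and Igf2 sit higher in a2, Fcer1g is at 0 in all 29 a2 cells, and in every panel at least some cells of the groups overlap.

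Of the transcription factors of blood formation, Hoxa9, Gata2 and Gfi1 were called higher in a2, and most others were not called. Hoxa9, a homeobox factor of blood progenitors, was at 89.2 and 6.09 CPM (log2 ratio 3.74, interval 2.60 to 5.53), with counts in 65.5% of a2 cells and in 4.17% of b3 cells. It was at 0 in most a2 cells of E9.0 and E9.5. Gata2, a factor that HE needs to make blood, was at 55.4 and 18.3 CPM (log2 ratio 1.57, interval 0.76 to 2.53). Gfi1, a repressor that silences endothelial genes in HE, was at 121 and 23.1 CPM (log2 ratio 2.36, interval 1.69 to 3.17). The median a2 cell was at 88.7 CPM and the median b3 cell at 0 CPM. The sort moved with this gene: inside b3 it was at 54.2 CPM in the cells named for Gfi1 and at 2.05 CPM in those named for Runx1. Among cells named for Gfi1 alone the log2 ratio of Gfi1 was 1.13. Its exons also overlap the antisense gene A430072P03Rik, and since the use of strand is not given in the sources used here, the reads of such pairs cannot be told apart.

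Runx1 itself, the factor whose reporter was used in the sort, was at 23.5 and 19.5 CPM (log2 ratio 0.25, interval -0.69 to 1.27), in 37.9% and 16.7% of cells. Of 24 compared genes in a list of blood emergence factors and receptors, 3 were higher in a2 (Gata2, Gfi1 and Hoxa9), 0 were higher in b3, and the median was 0.43. 8 of the 24 were below 0, among them Ikzf1, a lymphoid factor, at 7.51 and 32.9 CPM, and Gfi1b, the relative of Gfi1, at 33.8 and 86.5 CPM. All 8 genes of the study's common HE list could be compared and 7 were above 0, with a median of 0.70. Gfi1 was the called one. Mycn, a growth-promoting factor, was at 249 and 167 CPM, and Ttpa, a vitamin E transfer protein, at 31.0 and 13.4 CPM. Hapln1, a hyaluronan link protein, went the other way at 26.3 and 30.5 CPM, within its interval (-1.04 to 0.63 in log2). The intervals of Neurl3, an E3 ligase of HE (log2 ratio 0.61, -0.18 to 1.48), and of the purine receptor P2ry1 (0.79, -0.13 to 1.84) included 0 as well. Of these 8 genes, only Gfi1 thus reached the size asked for.

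Kit, the stem cell factor receptor used in the gate, was at 146 and 71.9 CPM, a log2 ratio of 1.02. Myb, a progenitor factor, was at 72.3 and 46.3 CPM (0.63, interval 0.06 to 1.24). Ptprc, which encodes CD45, had 0 counts in both groups, and so did the endothelial adhesion gene Mcam. The level that 3 counts give, 2.82 CPM in a2 and 3.65 CPM in b3, is what a sum of 0 allows. Itga2b, which encodes the other excluded surface protein CD41, was at 6.57 and 34.1 CPM, in 6.90% of a2 cells and 6 of 24 b3 cells.

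Endothelial identity was shared. In a list of 26 general endothelial genes 21 were compared, 1 was called and the median log2 ratio was 0.30. The junction gene Cdh5 was at 135 and 110 CPM, the sort gene Pecam1 (CD31) at 185 and 124 CPM, and the VEGF receptor Kdr at 18.8 and 14.6 CPM. The called gene was Procr, the endothelial protein C receptor, at 624 and 191 CPM (log2 ratio 1.70, interval 1.45 to 1.97), with a median cell at 364 and 132 CPM. Procr was lower in a2 among E9.5 cells, at 39.2 and 122 CPM, and higher among E10.5 cells, at 780 and 228 CPM. Its value over all cells thus rests on the E10.5 cells, and on their larger share in a2.

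The imprinted growth factor Igf2 had the highest counts of all called genes. It was at 12379 CPM in a2 and 2787 CPM in b3, a log2 ratio of 2.15 (interval 2.09 to 2.22). The a2 cells had a lowest value of 1009, a median of 11032 and a highest value of 29547 CPM, against 455, 1681 and 11396 CPM in b3. Day moved with this gene: it was at 2404 and 2019 CPM in E9.5 cells (log2 ratio 0.25) and at 15088 and 4230 CPM in E10.5 cells (1.83). 80.8% of its counts lay in cells where the sum of the gene was not whole. Reads divided only among its own transcripts would give whole sums, so some reads were shared with other genes. Cdkn1c, the imprinted cell cycle inhibitor p57, was at 98.6 and 14.6 CPM (log2 ratio 2.70, interval 1.89 to 3.75), and its exons overlap an antisense gene, Gm44732, which had 41 and 0 counts. Among 14 compared genes of an imprinted growth list, 2 were higher in a2, 0 were higher in b3, 10 were above 0 and the median was 1.22. H19, the non-coding neighbour of Igf2, was just outside the limit at 1.48 (1749 and 626 CPM).

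Further a2 genes covered several roles. Rgs2, an inhibitor of G-protein signals, was at 240 and 29.2 CPM, but at 24.5 and 32.1 CPM in E9.5 cells. Pdcd4, an inhibitor of translation, was at 138 and 7.31 CPM. Tead2, a Hippo pathway transcription factor whose exons overlap Cd37, was at 70.4 and 7.31 CPM. Those 3 genes regulate growth or signalling rather than the vessel wall. The blood group protein Art4 was at 89.2 and 8.53 CPM, the secreted protein Adissp at 184 and 21.9 CPM, and the death receptor Fas at 77.9 and 9.75 CPM. Ifitm1 and Ifitm3, interferon-induced membrane proteins of a family with close relatives, were at 351 against 97.4 CPM and 667 against 191 CPM. Col4a2, a basement membrane collagen that shares its promoter region and some annotated exon sequence with Col4a1, was at 104 and 17.1 CPM. In the basement membrane and matrix list 10 genes were compared, 3 were higher in a2 (Col4a2, Fn1 and Vwf) and the median was 0.84. Sparc, a matrix protein of most vessels, was at 609 and 731 CPM and did not follow them.

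On the side of the plexus, Fcer1g had the largest ratio of the called genes. It encodes the gamma chain through which Fc receptors of myeloid cells and platelets signal. It had 0 counts in all 29 a2 cells and 260 counts in b3, at least 112-fold higher in b3. The b3 cells had a lowest, median and highest level of 0, 246 and 1002 CPM, and 79.2% had a count. Its level in b3 was 352, 250 and 327 CPM in runs 1, 2 and 3.

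Clec1b, the podoplanin receptor CLEC-2 known from platelets, was at 39.4 CPM in a2 and 430 CPM in b3 (log2 ratio -3.43, interval -3.94 to -2.98). 27.6% of a2 cells and 95.8% of b3 cells had a count, with a median of 0 and 301 CPM. Lyve1, the hyaluronan receptor of scavenging endothelium, was at 44.1 and 414 CPM (-3.22, interval -3.70 to -2.79), in 13.8% and 79.2% of cells. The overlap came from the few a2 cells with Lyve1, of which the highest was at 1042 CPM. Npl, an enzyme that breaks down sialic acid, was at 11.3 and 278 CPM (-4.57, interval -5.60 to -3.79). Its highest a2 cell was at 97.7 CPM and its median b3 cell at 136 CPM. Car2, carbonic anhydrase of red cells and other types, was at 33.8 and 259 CPM (-2.92, interval -3.49 to -2.43), in 31.0% and 87.5% of cells.

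Of the 30 yolk sac endothelium genes of the study, 11 could be compared, and 4 were higher in b3: Lyve1, Npl, Selenop and Tcn2. Selenop, which carries selenium, was at 51.7 and 180 CPM. Ccdc152, which lies antisense to Selenop with shared exon sequence, was at 11.3 and 93.8 CPM, and its reads cannot be told apart from those of Selenop. Tcn2, the carrier of vitamin B12, was at 47.0 and 145 CPM. The 11 genes had a median log2 ratio of -3.06 and 10 of them were below 0. The exception was Stab2, a scavenger receptor, whose 114 counts came from 1 a2 cell. Fcgrt, the neonatal Fc receptor, had 3 and 101 counts, with counts in 3.45% and 29.2% of cells. Both were chosen after their values were seen. Several members, among them Fcgrt and Cd36, passed the filter on summed counts only through b3, and Stab2 only through a2. The list's median is therefore partly set by this filter. The study scored these same clusters with this list, so its direction was known beforehand and is no independent evidence. In a broader scavenger and endocytic list 8 genes were compared, 1 was called (Lyve1) and the median was -1.11. 5 of those 8 (Lyve1, Stab2, Cd36, Fcgrt and Lgmn) are also in the yolk sac list, and the cathepsin Ctsl, which is not, was at 306 and 379 CPM.

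Myeloid genes were mixed. Of 14 compared, 2 were higher in b3 (Fcer1g and Csf3r), 0 were higher in a2, and the median of -0.15 lay near the -0.04 of all genes. Csf3r, the receptor of G-CSF, was at 6.57 and 47.5 CPM, in 10.3% and 54.2% of cells. Bin2 and Sash3, a membrane-bending protein and an adaptor of blood cells, were at 20.7 against 104 CPM and 11.3 against 90.1 CPM. Among 4 compared megakaryocyte genes all were below 0, 0 were called and the median was -4.05, or -2.74 with genes absent from a2 at their bound. Pf4, platelet factor 4, had 0 and 29 counts in 0% and 20.8% of cells, so it passed the filter on summed counts only through b3. Of the 4 erythroid genes compared Car2 alone was called. The 10 macrophage genes, 12 mesenchyme genes and 12 yolk sac endoderm genes held 0, 1 and 0 genes with enough counts, and their summed levels were 17.8 against 19.5, 24.0 against 20.7 and 14.1 against 9.75 CPM. In each of these 3 lists 7 genes were at 0 in both groups. Markers of those other cell types were therefore near 0 in both groups.

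Other genes higher in b3 had roles in metabolism and the cytoskeleton. Hpgd, which inactivates prostaglandins, was at 11.3 and 119 CPM (log2 ratio -3.35), in 10.3% and 58.3% of cells. Myo7a, an unconventional myosin, was at 18.8 and 161 CPM (-3.07), in 24.1% and 91.7% of cells. Limch1, a regulator of non-muscle myosin, was at 23.5 and 123 CPM. Cnrip1, which binds a cannabinoid receptor and overlaps Plek on the other strand, was at 10.3 and 113 CPM. Nmt1, which attaches myristate to proteins, was at 8.45 and 53.6 CPM, and Inpp5b, an inositol phosphatase, was at 14.1 and 85.3 CPM. Glycolysis was split, with the glucose transporter Slc2a1 higher in a2 (125 and 41.4 CPM) and the enzyme Pgam1 higher in b3 (32.2 and 107 CPM), and a median of 0.02 over 15 genes. 51.7% of Pgam1 counts lay in cells where the sum of the gene was not whole.

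**Figure D3:**
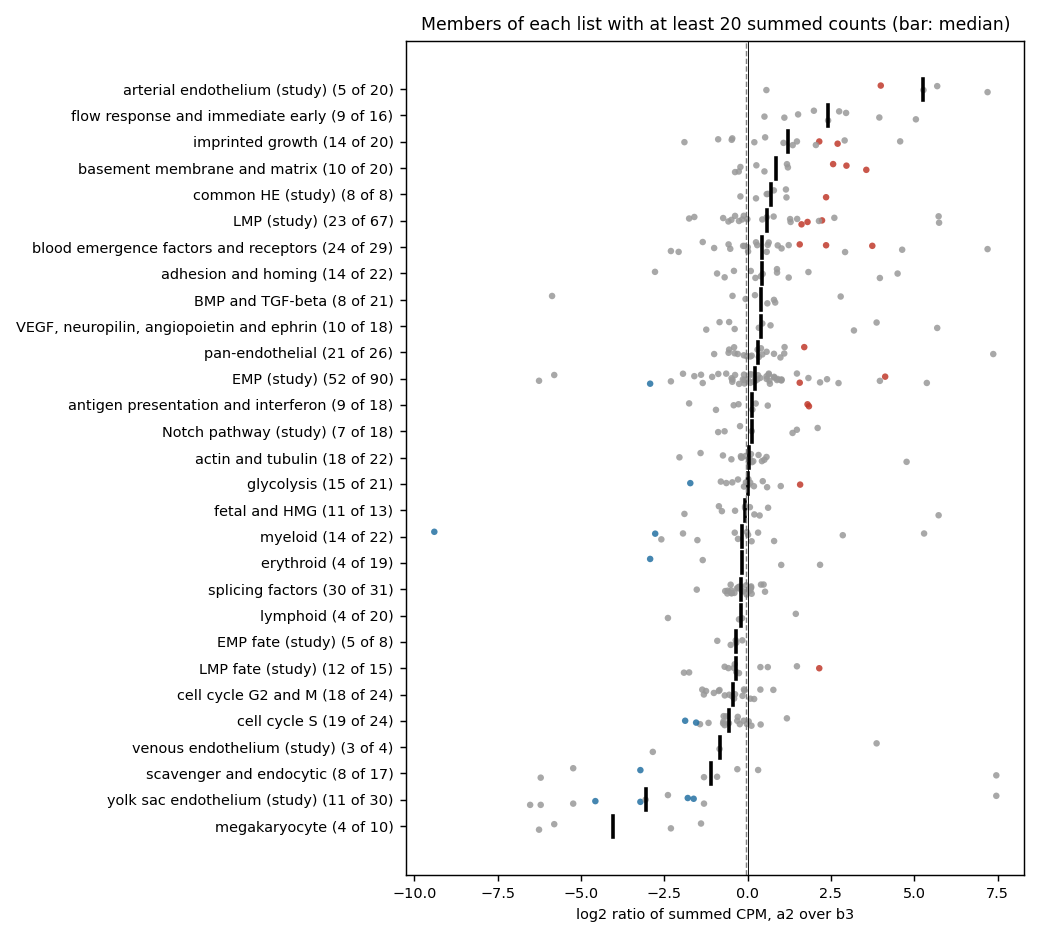
Log2 ratio of a2 over b3 for the compared genes of each list, with each point 1 gene (red called higher in a2, blue called higher in b3, grey not called), the bar the list's median and the dashed line the median of all 7542 genes. Arterial and flow-response genes lie above the line, megakaryocyte genes and all yolk sac endothelium genes but Stab2 lie below it, and most other lists straddle it. Several genes of these lists passed the filter on summed counts only through the group where they are higher.

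Most compared genes of the replicating cell had log2 ratios below 0, but few were called. Among 19 compared S-phase genes 15 were below 0, 2 were higher in b3 and the median log2 ratio was -0.56. Rrm1, a subunit of ribonucleotide reductase, went the other way at 89.2 and 39.0 CPM. Ung, a repair enzyme of S phase, was at 42.3 and 156 CPM. Uhrf1, which keeps DNA methylation through replication, was at 58.2 and 170 CPM. The reporter in the library name moved with Ung, which in b3 was at 48.2 CPM in cells named for Gfi1 and at 229 CPM in those named for Runx1. Among cells named for Gfi1 alone its log2 ratio was -0.22. Among 18 compared genes of G2 and M, 14 were below 0, 0 were called and the median was -0.43. Cenpa, a centromere histone, was at 463 and 355 CPM, Cdc20, an activator of the mitotic ubiquitin ligase, at 385 and 416 CPM, and Ube2c, its partner enzyme, at 273 and 401 CPM. Among E10.5 cells Cenpa was at 504 and 168 CPM and Cdc20 at 387 and 301 CPM, and at E9.5 both were lower in a2.

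All 9 compared genes of a list of flow-response and immediate early genes were above 0, with a median log2 ratio of 2.42, and 7 were past the limit of 1.5, but 0 were called. Junb, a part of the AP-1 factor, was at 87.3 and 15.8 CPM, in 31.0% and 16.7% of cells. Ier2, another immediate early gene, was in 93.1% of a2 cells but under the limit, at 357 and 166 CPM (log2 ratio 1.10), and Klf6, a zinc-finger factor, at 137 and 96.2 CPM. Fos, named after its values were seen, was at 84.5 and 4.87 CPM, and 1 cell gave 56.7% of its a2 counts. Fos and Junb reached 20 summed counts only through a2, so the list's median is partly set by this filter. Among a2 cells of E9.0 and E9.5, Klf6 was at 0 in all and Junb in most, while several E9.5 b3 cells held Klf6. Cd24a, a surface glycoprotein, was at 68.5 and 2.44 CPM (log2 ratio 4.50) but in 44.8% of a2 cells, under the limit.

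Of 31 splicing factors 30 were compared, 0 were called and the median was -0.19. Psip1, a chromatin-bound protein of this list, was the only one past the limit of 1.5, at 14.6 and 42.6 CPM, with the direction turned in run 1. Hnrnpa2b1 was at 779 and 922 CPM, Srsf7 at 756 and 780 CPM and Srsf6 at 522 and 566 CPM. Of 13 fetal and HMG genes 11 were compared, 0 were called and the median was -0.07, with the nucleosome-binding Hmgn2 at 3036 and 2894 CPM. In lists of the study for blood fates, 2 of 52 compared EMP genes were higher in a2 (Gata2 and Pdcd4) and 1 was higher in b3 (Car2), with a median of 0.22. 3 of 23 compared LMP genes were higher in a2 (Dpysl2, Ifitm3 and Tsc22d1), 0 were higher in b3 and the median was 0.57. Dpysl2, a regulator of microtubules, was at 82.6 and 17.1 CPM. Both lists were published before the study, which scored its early progenitor clusters with them.

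Signalling lists were mixed. Of 10 compared genes of VEGF, neuropilin, angiopoietin and ephrin signalling 0 were called, and the median was 0.39. The angiopoietin receptor Tek was at 63.9 and 93.8 CPM, its relative Tie1 at 110 and 144 CPM, and the semaphorin receptor Plxnd1 at 44.1 and 105 CPM. Nrp2, a neuropilin that the study lists as venous, was at 26.3 and 1.22 CPM, with counts in 13.8% and 4.17% of cells. The other venous genes compared were Flrt2, at 6.57 and 49.9 CPM, and the apelin receptor Aplnr, at 9.39 and 17.1 CPM, and the median of the 3 was -0.84. Aplnr, whose ratio is that median, was at 0 in nearly all cells of both groups. Its highest cells were at 217 CPM in a2 and 387 CPM in b3. So the venous list, of which 0 genes were called, had members on both sides. Of 8 compared BMP and TGF-beta genes 0 were called and the median was 0.41. The co-receptor Eng was at 209 and 121 CPM, and the BMP targets Id1 and Id3 were at 107 against 70.7 CPM and 207 against 283 CPM.

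In the adhesion and homing list 14 genes were compared, 0 were called and the median was 0.42. The tetraspanin Cd9 was at 219 and 118 CPM, the integrin chain Itgb1 at 174 and 147 CPM and Cd47, which signals against engulfment, at 197 and 262 CPM. Of 9 compared antigen presentation and interferon genes 2 were called, Ifitm1 and Ifitm3, and the median was 0.14. 4 lymphoid genes were compared and 0 were called, with Gimap6 at 299 and 357 CPM, Gimap1 at 129 and 145 CPM and Ly6e at 51.0 and 18.3 CPM. The study's short fate lists, which it built from differences between its own progenitor cells, gave medians of -0.35 for 5 compared EMP genes and -0.36 for 12 compared LMP genes, of which Igf2 was the only one called. Hsp90aa1, a chaperone of the EMP fate list, was at 1114 and 1242 CPM, the nucleolar Ncl at 691 and 982 CPM and the enolase copy Eno1b at 498 and 637 CPM. Abundant cytoskeletal genes were close to even, with 18 compared, 0 called and a median of 0.05. Actb was at 7546 and 8670 CPM, Pfn1 at 4728 and 5315 CPM and the actin-binding Tmsb4x at 6341 and 4473 CPM.

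Because day and reporter differed between the groups, the 92 called genes were compared inside each. Among E10.5 cells (21 against 7), 54 of 54 and 38 of 38 kept their direction. Among E9.5 cells (7 against 11), 49 of 54 and 38 of 38 did. The 5 genes that did not were Fads1, Gadd45g, Nrep, Procr and Rgs2. Nrep, a regeneration-related protein, was at 19.6 and 51.3 CPM at E9.5 and at 1296 and 501 CPM at E10.5. Among cells named for Gfi1 (29 against 10) all 92 kept their direction, with medians of 2.18 and 2.00 in log2 in the direction called. With both day and reporter alike, 54 of 54 and 37 of 38 kept it at E10.5 (21 against 4 cells), and 48 of 54 and 34 of 38 at E9.5 (7 against 4). The b3 gene that turned at E10.5 was Clspn, a checkpoint adaptor of replication. On the pooled plates that held both groups, 43 of the 54 and 24 of the 38 were still called. These subsets hold cells that chose the genes, so they show how even the differences were and are no replicates.

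**Figure D4:**
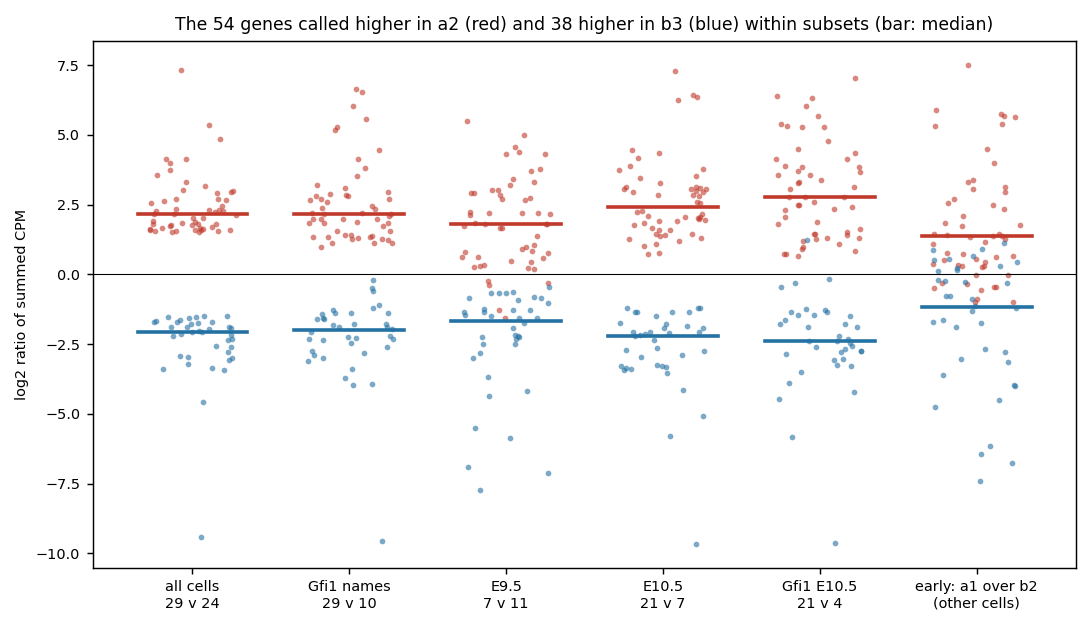
Log2 ratio of the 54 genes called higher in a2 (red) and the 38 called higher in b3 (blue) over all cells, inside subsets by day and reporter name, and of a1 over b2 in the early cells, with 1 point for each gene and bars for the medians. The groups of genes stay on their own side at E10.5, 5 red points lie below 0 at E9.5, and the colours mix more in the early cells.

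The early HE clusters of the same vessels, a1 (23 cells) and b2 (25 cells), are other cells, also defined on short reads, and did not enter the choice of genes. Embryonic day differed between them too, with more E9.0 cells in b2 than in a1, and the part of day was not tested. Of the 54 genes higher in a2, 43 were higher in a1 than in b2, and of the 38 genes higher in b3, 27 were higher in b2. The median log2 ratios in the direction called were 1.36 and 1.18, while over all 7542 genes the median of a1 over b2 was 0.02 and 3988 were above 0. Vwf was at 246 CPM in a1 and 3.53 CPM in b2, and Serpinf1 at 545 and 34.1 CPM. Fcer1g was at 27.4 and 447 CPM, and Lyve1 at 33.3 and 911 CPM. Most called genes thus had the same direction in the early cells. Igf2 differed little there, at 10976 and 8738 CPM, and Ung was on the other side, at 82.1 and 44.7 CPM. In the early blood progenitor clusters p1 and p2 of the yolk sac, which the labels call LMP-skewed and EMP-skewed, Fcer1g was at 484 and 463 CPM, and Lyve1 was at 18.3 and 23.2 CPM. Of the 54 genes 39 were higher in p1 than in p2, and of the 38 genes 22 were higher in p2, with medians in the direction called of 0.51 and 0.10. Over all 7542 genes 3740 were above 0 in p1 over p2, with a median log2 ratio of -0.006. Here too day differed, with more E10.5 cells in p1 than in p2.

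Isoform fractions, the share of a gene's counts on each transcript, were compared where a gene had at least 50 summed counts in each group and at least 10 in each group and run. An isoform was called when its fraction differed by at least 0.1, that is 10 percentage points, in the same direction in each run. Of 1356 genes, 197 (14.5%) had a called isoform, 96 (7.08%) of them with exact binomial intervals that did not overlap. Of 270 called transcripts 135 were higher in a2 and 135 higher in b3. The leading transcripts of a gene were the one with its largest called shift and the one that shifted most the other way. In 96 of the 197 genes the leading transcript of a2 was longer, and in 101 that of b3. 33 genes had a leader annotated as protein-coding in a2 and one of another annotation in b3, and 41 the reverse. Transcripts annotated for decay counted as another annotation, although some, such as Pear1-205, carry a coding sequence. Neither length nor the protein-coding annotation leaned far to either side. For 77 of the 197 genes more than 50% of the leading isoform's counts were not whole, so that reads matched several transcripts.

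The junctions printed here are those that tell apart the leading transcripts of 4 of the 10 genes that ranked highest by the difference of their largest called transcript, those that the next paragraphs turn on. Each holds 30 bases centred on a splice junction, 5′ to 3′ along the transcript, and the capitals mark the 3 bases on each side of the joint. The sequences come from GENCODE M21 transcripts of the same stable identifier and equal length. Coordinates are those of the intron in GRCm38, and transcript names are as in the deposited table, which uses another release. Each first line is the transcript higher in a2 and each second line the one higher in b3.
Wdr1-201, chr5:38561202-38561515, minus strand: tgccgtacgagaTCAAGAaggtgttcgcca
Wdr1-205, chr5:38561197-38561515, minus strand: tgccgtacgagaTCAGTGttcgccagcctc
Sinhcaf-203, chr6:148933149-148944749, minus strand: gttgttccagcgCAGCTTtgaaccagaaga
Sinhcaf-208, chr6:148933149-148941932, minus strand: aacactgagacgAGGCTTtgaaccagaaga
Ythdf2-202, chr4:132186948-132204131, minus strand: gaaagtgttaaaAAGGAAcgtcaaggtcgt
Ythdf2-201, chr4:132186948-132210751, minus strand: ccacaggcaaggCCGGAAcgtcaaggtcgt
Tex30-211, chr1:44100002-44102327, minus strand: ctcgtgcgttcgCTGATTttgaatgtgcac
Tex30-201, chr1:44101523-44101899, minus strand: cagacggaacagACATCTagaacaagttca

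Wdr1 encodes a protein that takes actin filaments apart together with cofilin. Its main coding transcript Wdr1-201 held 89.1% of the gene's counts in a2 (interval 78.8 to 95.5%) and 55.2% in b3 (42.6 to 67.4%). In runs 1, 2 and 3 it was 90.5, 92.9 and 86.2% in a2 against 23.5, 73.3 and 62.9% in b3. The runs did not overlap, and no cell gave more than 16.4% of the counts. The rest in b3 was spread over several transcripts, among them Wdr1-205 at 13.4%, against 1.56% in a2. Wdr1-205 was not called, was at 0% in run 2 of b3, and 70.0% of its counts were not whole. Wdr1-201 and Wdr1-205 differ at the pair of junctions printed above, where the introns are 314 and 319 bases long and start after the same upstream exon.

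Sinhcaf encodes a subunit of the SIN3 histone deacetylase complex. Its short transcript Sinhcaf-208 held 7.96% in a2 (4.17 to 13.5%) and 39.4% in b3 (27.6 to 52.8%), at 7.30, 4.31 and 11.1% against 24.2, 85.7 and 27.3% by run. Sinhcaf-203, which was not called, held 19.9 and 6.30%. As the printed junctions show, both join the same downstream exon from different upstream exons. Ythdf2 encodes a reader of methylated adenosine that speeds mRNA decay. The coding Ythdf2-201 held 18.8% in a2 (11.2 to 28.8%) and 45.7% in b3 (33.7 to 58.1%), and Ythdf2-202, annotated as a retained intron, held 70.4 and 54.3%. The pair joins its last exon from different upstream exons, and the gene's own level was 79.8 and 85.3 CPM. Ythdf2-201 had a count in only 6 a2 cells and 5 b3 cells, of 19 and 15 with the gene. 1 b3 cell gave 25.7% of the gene's b3 counts.

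Among the rest of these 10 genes, Pear1 and Bag6 were uneven. Pear1, a receptor of platelets and endothelium, had 44.9% of its counts on the decay-annotated Pear1-205 in a2 and 8.93% in b3. 1 cell gave 39.3% of the a2 counts of this gene, and its share was 70.0 against 9.09% in run 1 and 5.56 against 0% in run 2. Bag6-209, of a chaperone of newly made proteins, was at 46.2 and 17.5%, but at 53.3 and 52.4% in run 1. So run 1 carried almost no difference for Bag6. Among E9.5 cells both turned, with Bag6-209 at 16.7 and 34.2% and Pear1-205 at 0 and 18.5%, from 18 and 7 a2 counts of the genes. Tex30-201 was at 30.3 and 56.7%, with runs from 28.7 to 33.3% in a2 and from 53.3 to 59.6% in b3, which did not overlap. Its counterpart Tex30-211 was at 19.5 and 8.23%, with 83.3% of its counts not whole. Ybx3-205, of an RNA-binding cold shock protein, was at 45.6 and 19.2%. 3 more of these 10, Akt1s1-204, 1810009A15Rik-202 and Timm9-207, were at 47.0 against 76.1%, 21.3 against 54.6% and 10.4 against 36.8%. For the latter pair 84.3% and 76.2% of counts were not whole, and their split between transcripts is uncertain.

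**Figure D5:**
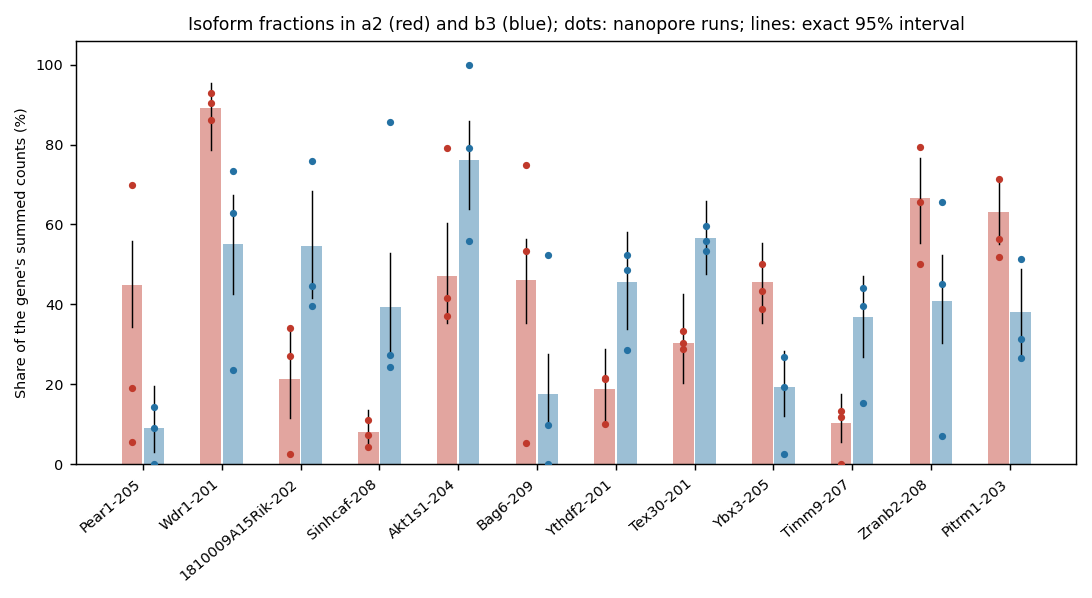
Isoform fraction (percent of the gene's counts) of 12 transcripts in a2 and b3, with bars for the summed fraction, error bars for the exact 95% binomial interval and dots for the 3 runs. Wdr1-201 and Tex30-201 have run dots that stay apart, whereas the dots of Pear1-205 and Bag6-209 overlap between the groups.

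Among genes of the fixed lists, isoforms were called in 3 of 11 general endothelial genes. Esam, an endothelial junction protein, had Esam-201 at 89.6 and 79.1% and Esam-205 at 9.90 and 20.9%. Cd34, a surface sialomucin, had the decay-annotated Cd34-203 at 29.4 and 17.8%. Procr had its coding Procr-201 at 61.0 and 79.0% and a retained-intron form, Procr-204, at 10.1 and 0%. Procr was also called by level, as were Selenop and Flna, the only 3 genes called by both. 2 of 23 compared splicing factors had a called isoform: Hnrnpm-206 at 38.1 and 55.8% with 84.6% of its counts not whole, and Srsf5-206 at 28.2 and 48.5%. Srsf5-206 turned among E10.5 cells, with b3 at 19.1% and a2 above it. Of all genes compared 14.5% had a called isoform. Cdt1, which licenses replication origins, had Cdt1-201 at 89.8 and 68.1%, but in b3 cells named for Gfi1 it was at 89.3%, and among E10.5 cells the groups were at 88.2 and 88.9%.

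Of the genes that the study discusses for isoforms in other comparisons, Ythdf2 was called, as described above, and Rpl34 and Pfn1 were not. Rpl34, a ribosomal protein, had Rpl34-201 at 51.0 and 57.6% and Rpl34-202 at 32.2 and 27.4%, both under the limit and almost wholly from divided reads. Pfn1, which binds actin monomers, had Pfn1-201 at 98.6 and 98.3%. Arglu1 and Runx1 had too few counts in a group or run for their fractions to be compared, with 99 and 47 counts of Arglu1 and 25 and 16 of Runx1.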

How the data were processed

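Long-read libraries of 221 single mouse cells were deposited, of which the late HE-YSA and HE-YSP cells were compared here. The authors basecalled with Dorado, used bbduk for adapters and YACRD with porechop against chimeras, aligned to GENCODE transcripts with minimap2 2.26 (per the labels) and quantified with NanoCount, and deposited estimated counts that are not normalized. The deposited TPM values, the same estimates rescaled, were not used, and the authors' DESeq2 normalization is not in the files. Use of strand is not given in the sources used here. NanoCount divides a read among transcripts: 51.6% of the values above 0 were below 1.

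Cells were grouped by their labels, and those under 17595 counts (the median over cells minus 1 scaled median absolute deviation) were left out, as in the study's methods. Estimated counts were summed per gene and group. They were rounded for exact Poisson or binomial intervals, thinning and size factors. With 1 sample a group, no test was run and sums cover counting error only. The members, gene lists and rules were chosen with earlier results of these data known.

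Genes were named by a rule: the 15 called coding or long non-coding genes with the largest ratio in each direction, called list members, genes the study names for HE, the 10 genes with the largest difference of a called isoform, the study's isoform examples, and the members with most counts in lists without calls. Mecom, Gja5, Efnb2, Pdlim1, Stab2, Fcgrt, Fos, H19, Sparc, Ctsl, Cd36, Lgmn, Ikzf1, Gfi1b, Rrm1, Psip1, Nrep, Fads1, Gadd45g, Clspn, Flna and the isoforms of Esam, Cd34, Procr, Cdt1, Hnrnpm and Srsf5 were named after their values were seen, as were genes next to the limit and genes that overlap a named one.

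The calling rule was tested on simulated counts. Alternatives covered cell limits, normalization, filters, runs, day, reporter, plates and single cells. Python 3.11.15, numpy 2.4.6, pandas 2.3.3, scipy 1.17.1, matplotlib 3.10.9, R 4.3.3 and DESeq2 1.42.0 (size factors only) were used. Of the called genes 90 of 92 had a position in GENCODE M21, and 28 overlapped exons of another gene, 23 on the opposite strand. Some named genes are not reported here.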

Additional observations from a re-analysis of the deposited data

Results flagged for a closer look

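Of 159 genes that were named by the rule or called, 5 had opposite directions at E9.5 and E10.5 with both exact intervals off 0, and 274 of all 7542 genes did. Whether the days differed was not tested. Procr, the protein C receptor, had a log2 ratio of a2 over b3 of -1.57 at E9.5 (39.2 and 122 CPM) and 1.76 at E10.5 (780 and 228 CPM). Cenpa, a centromere histone, had -0.52 at E9.5 (343 and 494 CPM) and 1.57 at E10.5 (504 and 168 CPM). Cdc20 had -0.44 and 0.36, and the chaperone Hsp90aa1 -0.27 and 0.30. Dlk1, an imprinted Notch-like ligand, had 4.31 at E9.5, from 6 and 0 counts, and -2.85 at E10.5, from 3 and 9 counts. At E9.5 7 a2 cells and 11 b3 cells entered, and at E10.5 21 and 7.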

How the results depend on the processing

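In place of 54 genes higher in a2, 38 higher in b3 and 197 with a called isoform, each alternative gave new totals, not all of them the same genes, and subsets hold fewer cells, so that fewer genes have enough counts and single ratios scatter more. The counts were 129, 121 and 40 with E10.5 cells, 82, 149 and 69 with E9.5 cells, 98, 45 and 97 with cells named for Gfi1, 257, 186 and 94 with such cells of E10.5 and 147, 96 and 57 with those of E9.5. Of the original calls 39, 22 and 12 (of 26 isoform genes still tested) were made again at E10.5, 13, 16 and 12 (of 22) at E9.5, and 38, 19 and 43 (of 64) with cells named for Gfi1. On plates with both groups the totals were 78, 35 and 127. They were 68, 65 and 235 without run 1, 98, 63 and 331 without run 2 and 93, 69 and 222 without run 3, and 201, 161 and 179, 119, 117 and 105, and 170, 134 and 206 in runs 1, 2 and 3 alone. Without the AGM-named cell they were 50, 37 and 194. Gene counts were 62 and 55 with the cell limit on a log scale (133 isoform genes), 42 and 24 with at least 100 summed counts, 108 and 104 with a limit of 1, and 318 and 259 with no limit on the share of cells. Isoform calls were 42 at a difference of 0.2, 95 and 23 with at least 100 and 200 counts per group, and 454 with no condition on the runs. Of 945 values of 45 called named genes 939 kept their direction. The others were Rgs2 (-0.32) and Procr (-1.57) at E9.5, and Fas (-0.28), Inpp5b (1.88), Procr (-2.68) and Ung (4.28) in Gfi1-named cells of E9.5; the cause was not tested. Of 565 values of 29 list medians 466 stayed within 0.5 of the main value. No paired analysis was possible because the cells carry no pairing. Depth limits the low genes: the interval of Runx1, with 25 and 16 counts, ran from -0.69 to 1.27.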
